A study of Mus musculus with 4 samples.

Results

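The genes described here are the long intergenic noncoding RNA (lincRNA) genes that mouse T-helper 17 (Th17) libraries held at a measurable level. They were chosen by 4 criteria: the GENCODE M21 biotype lincRNA, a place on an autosome, a symbol other than Gas5 or the Snhg series (hosts of small nucleolar RNAs), and a mean level of at least 3 TPM over the 4 libraries. TPM is a relative abundance corrected for gene length and library depth. Of the 50600 gene rows, 4460 were lincRNA genes and 3811 of these met the first 3 criteria. The level criterion left 161, which is 4.22% of the 3811. Because the measured level selected them, the levels below are a description and carry no test. Spread between libraries and sequence took no part in the choice, whereas position entered through the autosome and through the biotype, which sets intergenic genes apart from antisense, intronic and bidirectional ones.

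The 4 libraries formed 1 group of primary cells labelled T-helper 17, from mouse strain C57BL/6NJ, numbered as biological replicates 1 to 4. Each had its own biosample record and all shared 1 donor record, so whether they came from separate animals is not given, and p-values measure the spread between these samples only. Age, developmental stage and sex were not recorded, no treatment or control group was present, the alignment names carried an hour tag of 0, and the linked culture protocol concerned CD4 T-cell differentiation. The assay was named total RNA-seq while the linked library protocol was titled poly(A)+, which matters for RNAs without a poly(A) tail. Counted fragments ranged from 29041979 in replicate 1 to 48808978 in replicate 3. All 7 T-cell markers reached 1 TPM in every library, with a summed level of 7809 to 8012 TPM, whereas 3 of 5 Th17 markers did, with a summed level of 13.5 to 24.0 TPM, so the genes that define the label were at low levels. The B-cell list summed to 2.51 to 3.73 TPM with 0 of 5 genes at 1 TPM, and the dendritic, natural killer and erythroid lists also had 0 genes at 1 TPM, with Hba-a1 at 0 counts. The CD8 list had 1 of 2 with a summed level of 39.1 to 46.1 TPM, above that of the Th17 list. The myeloid list had 1 of 5 (1.55 to 2.88 TPM summed) and the stromal list 1 of 3 (1.89 to 3.05 TPM).

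Long noncoding RNAs are transcribed and processed much as messenger RNAs are but have no known protein product. Some act as scaffolds of nuclear bodies, some bind proteins or microRNAs away from their locus, some are the precursors from which microRNAs are cut, and for others the act of transcription influences a neighbouring gene. In T cells, such RNAs have been tied to activation, cytokine loci and the control of microRNA supply.

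Among the 161 genes, 8 spanned an annotated microRNA hairpin, and 5 of these carried it on their own strand. Mir17hg (ENSMUSG00000089726, chr14:115042879-115046727, plus strand, mm10), the host of the miR-17 to miR-92 cluster that promotes lymphocyte growth, held 6 hairpins in its exons. Its main mature products are shown because they fall into 4 seed groups, a seed being the bases that choose a target. Sequences are from RefSeq, written 5′ to 3′, with bases 2 to 8 in capitals. The first pair share a seed, and so do the miR-19 products.
mmu-miR-17-5p: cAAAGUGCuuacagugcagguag
mmu-miR-20a-5p: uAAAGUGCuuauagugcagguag
mmu-miR-18a-5p: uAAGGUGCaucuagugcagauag
mmu-miR-19a-3p: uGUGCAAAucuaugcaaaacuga
mmu-miR-19b-3p: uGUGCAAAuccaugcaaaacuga
mmu-miR-92a-3p: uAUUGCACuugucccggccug

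The Mir17hg host RNA stood at 5.67, 6.21, 4.54 and 7.42 TPM in replicates 1 to 4. The counting did not assign fragments shared by genes on 1 strand, and 536 of the 3536 exon bases of Mir17hg were shared, so its level is a minimum. Mir142hg (ENSMUSG00000084796, chr11:87755577-87757270, plus strand), host of the blood-cell microRNA miR-142, was far higher on this length-scaled measure, at 112, 132, 109.6 and 126 TPM. Its hairpin lies in an intron of the counted model, which has only 269 exon bases. The remaining hosts were E130102H24Rik with Mir101a at 8.47 ± 1.16 TPM (SD, n = 4), 2900076A07Rik with Mir1839 at 13.1 ± 2.54 TPM and Gm37233 with Mir5103 at 3.03 ± 0.647 TPM. The hosts therefore ranged from near the selection minimum to a high rank of the whole set. The products of the miR-142 and miR-101 hairpins belong to other seed groups than those above, as their capitals show.
mmu-miR-142a-5p: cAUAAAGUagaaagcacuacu
mmu-miR-142a-3p: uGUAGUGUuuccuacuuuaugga
mmu-miR-101a-3p: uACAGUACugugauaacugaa

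A further 2 members are known for sites within the RNA itself. 1700020I14Rik (ENSMUSG00000085438, chr2:119594297-119607502, plus strand), named Oip5os1 by RefSeq and also known as Cyrano, promotes the decay of the microRNA miR-7. The longest GENCODE M21 transcript, of 8300 bases, held 2 matches to the 7-base miR-7 seed, at positions 762 and 2952 from the transcript's 5′ end. Seed matches alone are common, since 22 of the 161 members held at least 1 in their longest transcript. At position 2952 an upstream run of 13 further bases is complementary to miR-7 outside the seed, against 3 at position 762. Runs were searched by letters alone, wherever they fell in the upstream bases. The microRNA is shown with its seed in capitals, and the sites with the seed match and the longest other complementary run in capitals. At 762 the short run adjoins the seed match but does not pair with the microRNA bases next to the seed. The capitals there are not a continuous pairing.
mmu-miR-7a-5p: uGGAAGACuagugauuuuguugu
Cyrano site at 2952: agaACAACAAAATCACcaatGTCTTCCa
Cyrano site at 762: cttcaggttttttttttAATGTCTTCCa

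Cyrano was at 77.6, 76.5, 76.1 and 80.6 TPM, and the 4 libraries hardly differed. 2900097C17Rik (ENSMUSG00000102869, chr2:156391831-156392979, minus strand), named Norad by RefSeq, binds Pumilio proteins, which destabilise messenger RNAs. It was at 41.6, 44.3, 44.1 and 45.4 TPM. The longest M21 transcript of Norad, of 4915 bases, held 11 copies of the Pumilio motif TGTANATA, searched on the transcript strand with N for any base and overlaps allowed. Of the 161 longest transcripts 36 held at least 1 copy, and after Norad the most was 4, in Neat1. The deposited gene model of Norad covered only 1149 bases, so the Norad level rests on a part of the transcript. Counted from the transcript's 5′ end, that length holds the starts of 2 of the 11 copies. The second of these copies runs past it. Examples of the sites stand here with the motif in capitals and its position in the transcript. The first lies inside that length, the second crosses its end and the third lies outside.
Norad site at 651: agaagtcctgTGTATATAatatgaaaaa
Norad site at 1147: gtaaacatgcTGTAAATAcctttttgtt
Norad site at 1336: ggcttttcttTGTACATAgtgtatgtaa

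Levels across the set were steeply graded. A single gene exceeded 1000 TPM, 9 exceeded 100 TPM, 67 lay from 10 to 100 TPM and 85 from 3 to 10 TPM, with a median of 9.28 TPM. For comparison, 9346 of 21764 protein-coding genes (42.9%) reached the same minimum, with a median of 37.6 TPM among them. Of the 3811 candidates, 2914 had no count in any library and 93 had a mean of 1 to 3 TPM.

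Gm42418 (ENSMUSG00000098178, chr17:39846958-39848788, plus strand) led the set at 2611, 2397, 2503 and 2319 TPM. RefSeq names it Rn18s-rs5, an 18S ribosomal RNA-related sequence, and classes it as a pseudogene. Gm26917 (ENSMUSG00000097971) ends 616 bases upstream of it on the same strand and was at 483, 449, 603 and 451 TPM. Both are known to overlap a ribosomal RNA repeat, so their levels need not describe a noncoding RNA gene. Their library patterns differed: Gm26917 was highest in replicate 3 and Gm42418 in replicate 1, and the ratio of Gm42418 to Gm26917 was 5.41, 5.33, 4.15 and 5.14. The third lincRNA gene known for this overlap, AY036118, had 0 counts in each library, which allows up to 3 counts. All members summed to 6645 ± 328 TPM (SD, n = 4), of which Gm42418 made up 35.9% to 37.9% in each library. Without Gm42418 and Gm26917 the sum was 3691 TPM.

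Malat1 (ENSMUSG00000092341, chr19:5795690-5802672, minus strand), an RNA of nuclear speckles, was the second gene of the set at 652, 614, 433 and 526 TPM. Replicate 3 was lowest and replicates 1 and 2 were highest. Neat1 (ENSMUSG00000092274), the scaffold of paraspeckles, ends its transcription 22035 bases away on the same strand and stood at 49.7, 38.3, 30.5 and 30.6 TPM. Malat1 exceeded Neat1 by 13.1 to 17.2 times in each library on the TPM scale. Both RNAs share a few exon bases with another annotated gene on their strand, 86 of 6983 for Malat1 and 384 of 20771 for Neat1.

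The next members in order were less studied genes. A630023P12Rik (chr5:110514923-110525980, plus strand) was at 283, 274, 249 and 248 TPM. AW112010 (chr19:11047617-11050566, minus strand), an RNA induced in activated immune cells, was at 213, 187, 233 and 190.4 TPM. Gm11707 was at 129, 175, 121 and 159.9 TPM. These genes fluctuated in different libraries, A630023P12Rik being highest in replicate 1, AW112010 in replicate 3 and Gm11707 in replicate 2.

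Mir142hg followed at 119.9 ± 11.1 TPM, then Gm19585 at 108 ± 11.2 TPM and AU020206 at 104 ± 9.99 TPM. Epb41l4aos was at 97.1 ± 4.67, Gm32633 at 96.6 ± 6.92 and Cyrano at 77.7 ± 2.05 TPM. BC043934 was at 65.3 ± 8.41, Gm8066 at 61.4 ± 3.34 and AI504432 at 52.3 ± 4.20 TPM (SD, n = 4 each). The order among most of these is not resolved: across the set, 154 of 160 neighbours in the order of mean level had overlapping ranges over the 4 libraries and 6 did not.

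**Figure D1:**
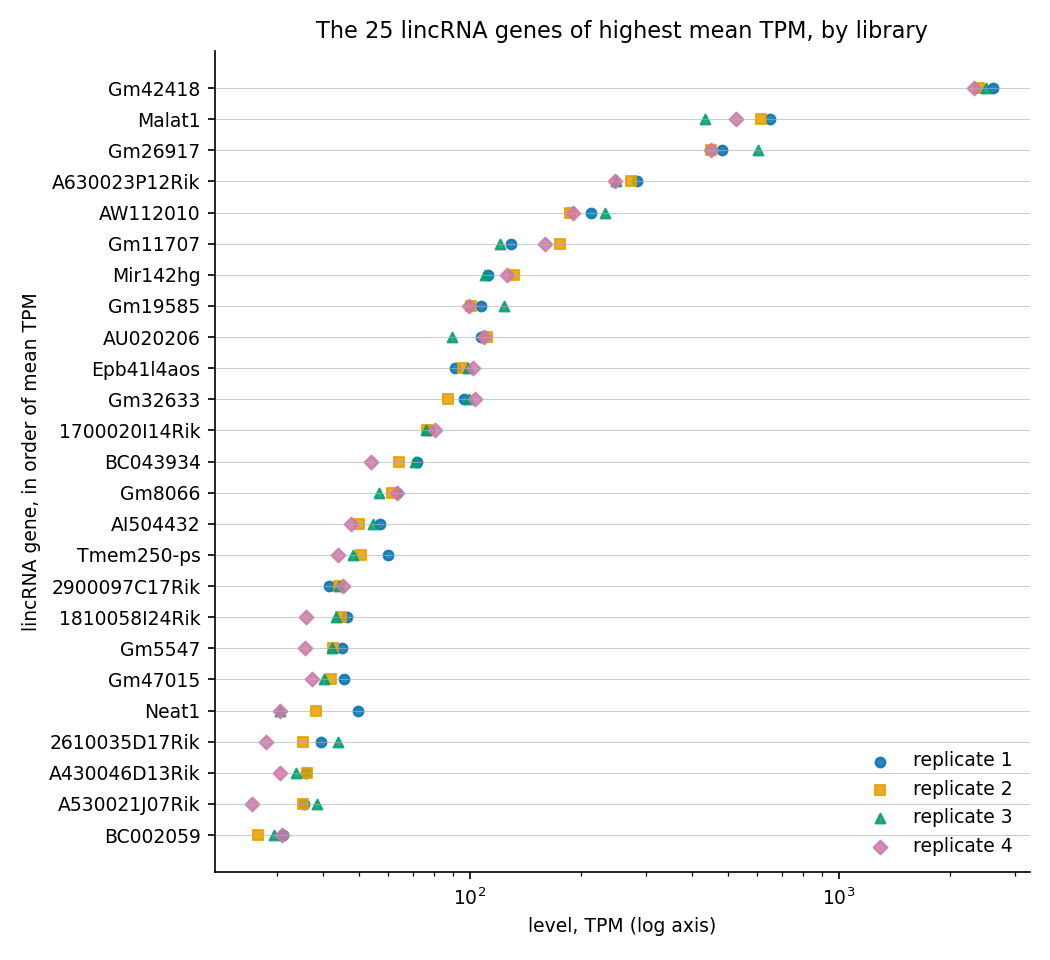
Level in TPM (log axis) of the 25 lincRNA genes of highest mean level, 1 row per gene and 1 point per library. Gm42418 stood apart from the rest at 2319 to 2611 TPM, and most neighbouring genes overlapped in range.

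The protein-coding genes nearest to these leading members varied widely in level. Gm19585 lay 315999 bases from Satb1, a chromatin organiser of T cells, at 205 TPM, and Gm32633 lay 62970 bases from the transcription factor gene Klf13, at 256 TPM. AU020206 lay 14429 bases from Akap13 at 187 TPM, A630023P12Rik 18375 bases from Galnt9 at 11.3 TPM and Gm11707 15539 bases from Kpna2 at 15.7 TPM. Closer still was AI504432, which begins 1434 bases after the end of Kcna3, the gene of a T-cell potassium channel, at 64.7 TPM. BC043934 lay 32799 bases from Rnf7 at 66.8 TPM and Mir142hg 3271 bases from Tspoap1 at 2.78 TPM. The genes nearest to AW112010 (Ms4a8a, 0.0108 TPM) and to Cyrano (Oip5, 0.719 TPM) were themselves below 1 TPM. Those nearest to Gm42418 and Gm26917 (Esp38), to Epb41l4aos (Epb41l4a) and to Gm8066 (Epo) had 0 counts. The coding genes nearest to these leading members thus had a high level, a low level or no count. Several were distant, as Esp38 lay 104565 bases from Gm42418 and 107012 bases from Gm26917.

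At the selection minimum the set had no gap. Just inside it were Gm47214 at 3.67, 2.59, 1.93 and 3.86 TPM, Gm14168 at 3.50, 2.84, 3.07 and 2.64 TPM, and Gm28707 at 3.23, 2.35, 3.53 and 2.91 TPM. Just outside were Gm26583 at 2.99, Lncpint at 2.99 and Gm16001 at 2.95 TPM on average. The genes on either side of the minimum were alike in level.

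A list of 63 long noncoding RNA names from the literature gave 58 matched genes, with 3 names unmatched. Of these genes, 13 were members and 25 reached 1 TPM in every library. Members not yet mentioned were Mirt1 at 19.4 ± 1.58, Dubr at 11.0 ± 1.71 and Pvt1, a neighbour of the growth regulator Myc, at 8.48 ± 0.836 TPM (SD, n = 4). The other 12 that reached 1 TPM fell outside the set, 10 for another GENCODE biotype and 2 lincRNA genes, Lncpint and Ifngas1, for their level. Highest among the 12 were Tug1, classed as antisense, at 86.9 ± 4.17, 4930523C07Rik, classed as protein-coding, at 76.6 ± 9.99, and Peg13, classed as sense intronic, at 48.9 ± 4.28 TPM. A930005H10Rik was at 44.2, Rpph1 at 7.35, Airn at 6.76, Cep83os at 6.67, 2610005L07Rik at 4.73, Dleu2 at 3.08, Ifngas1 at 2.09 and Gm15441 at 1.69 TPM. Ifngas1 is transcribed beside the interferon gamma gene. A further 17 listed genes, Hotair, H19 and Meg3 among them, had 0 counts in all 4 libraries, which allows up to 3 counts in each. The set therefore leaves out several abundant long noncoding RNAs through their biotype, not their level.

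Spread between libraries was the 1 comparison the design allowed. It was measured for 158 members by edgeR's quasi-likelihood fit across all genes, and 3 members fell below its count filter. Gm42047 (ENSMUSG00000110631, chr8:121833247-121841178, plus strand) was the only member called more variable than genes of similar abundance. It stood at 20.0, 19.3, 5.63 and 11.1 TPM, high in replicates 1 and 2 and lowest in replicate 3, with a highest-to-lowest ratio of 3.56. The quasi-dispersion of Gm42047 was 48.2 times the trend (edgeR quasi-likelihood, one-sided F test, Benjamini-Hochberg adjusted p = 0.0368). That is 1 call among 158 members (0.633%) against 24 among 12464 genes tested (0.193%). Without replicate 3 the adjusted p of Gm42047 was 0.553 in the same edgeR test, and without replicate 2 it was 0.0842.

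The span of the coding gene Gm20388 overlaps Gm42047 on the same strand, and Gm20388 was at 0 TPM. Klhdc4 and Slc7a5, coding genes further away, had a smaller range than Gm42047. Klhdc4, whose start lies 3678 bases away on the opposite strand, was at 43.8, 39.8, 38.1 and 40.4 TPM. Slc7a5, the gene of a large neutral amino acid transporter that activated T cells induce, starts 74447 bases away and was at 68.7, 67.7, 54.4 and 53.3 TPM. Slc7a5 was thus higher in replicates 1 and 2, as Gm42047 was, with a smaller range. Klhdc4 and Slc7a5 were looked up after the values of Gm42047 had been seen.

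At an unadjusted p below 0.05, 14 members passed the same edgeR test (8.86%), beside 5.34% of all genes tested. By DESeq2's dispersion outliers, 2 members were marked, Gm42047 and Neat1, beside 0.866% of all genes tested. Neat1, with a quasi-dispersion 19.5 times the trend, and Malat1, with 9.59 times, did not pass (edgeR adjusted p = 0.189 and 0.491). Without replicate 4 both passed (edgeR adjusted p = 0.00089 for Neat1 and 0.0392 for Malat1).

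The coefficient of variation (SD over mean of the 4 TPM values) had a median of 15.8% over the tested members and 7.94% over all genes tested. Members also had lower counts, and the gap depended on the count. Between a mean count of 50 and 200 the medians were 17.6% for 54 members and 17.4% for 1572 genes. From 200 to 1000 counts they were 12.9% for 56 members and 9.19% for 2923 genes, and above 1000 counts 9.94% for 18 members and 5.34% for 6372 genes. Below 50 counts they were 25.4% and 25.6%. The members were thus as variable as other genes at low counts, and the medians parted above 200 counts. The ranges above 200 counts are wide, and genes were not matched for count within them. The part of count in that gap was not tested.

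**Figure D2:**
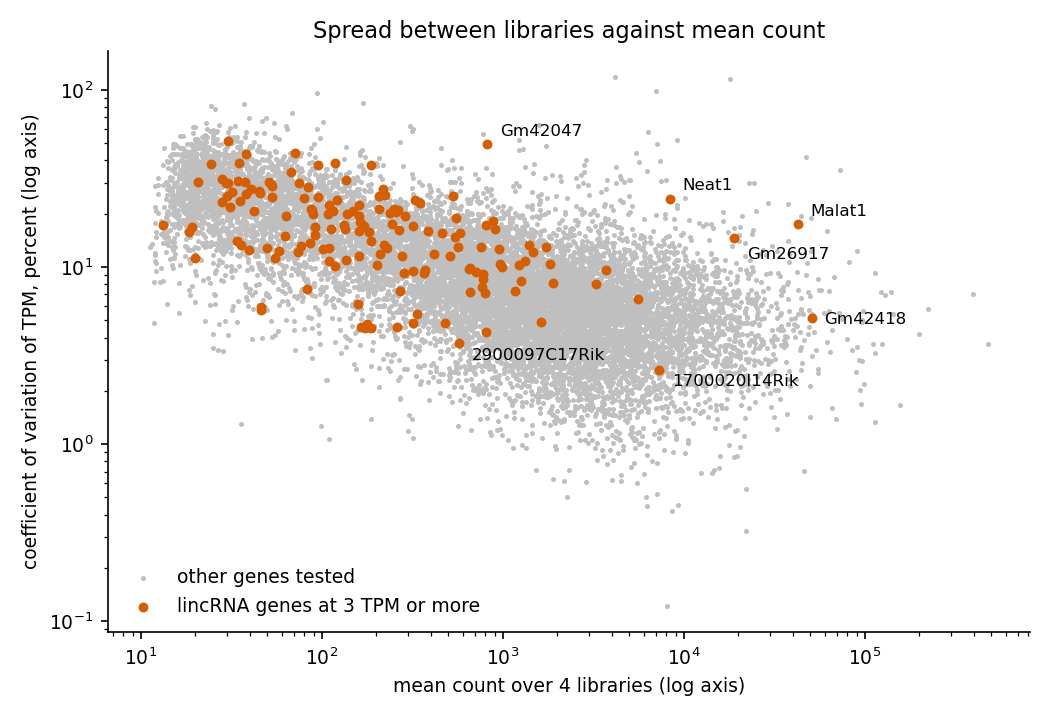
Coefficient of variation of TPM in percent against mean count, both on log axes, for each gene tested (grey) and the tested lincRNA genes (orange). Gm42047, at 49.3%, lies above most genes of similar count, and 1700020I14Rik (Cyrano) lies at 2.63%.

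Among the 128 members with a mean count of 50 or more, the steadiest were Cyrano with a coefficient of variation of 2.63%, Norad with 3.72%, 4632415L05Rik with 4.32%, F730311O21Rik with 4.53% and Gm20186 with 4.55%. Gm20186 was at 14.7, 14.7, 15.1 and 13.6 TPM. At the other end, 1700096K18Rik was at 6.69, 3.60, 5.37 and 2.18 TPM, with a coefficient of variation of 44.3%, second to Gm42047 with 49.3%. The next were Gm43672 (38.5%), D130017N08Rik (37.8%), Gm9889 (37.6%) and Gm15326 (34.2%), all lowest in replicate 4 and high in replicates 1 and 3. Gm10451 (31.1%), Gm6213 (30.2%), Gm28151 (29.9%) and Gm38171 (29.5%) had other patterns, Gm10451 and Gm38171 being highest in replicate 2. The most variable members thus did not share 1 library pattern.

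Across the tested members, levels leaned towards replicate 1, whose values also entered the choice of members. With the mean taken without replicate 1, 152 of the 161 members still reached 3 TPM. Without replicate 2, 3 or 4 the numbers were 161, 159 and 158. The lean was not recounted in the 152. On counts scaled for library size and composition (TMM-scaled CPM), 68 of 158 members (43.0%) were highest in replicate 1, beside 27.0% of all genes tested, and 69 (43.7%) were lowest in replicate 4, beside 30.6%. The median deviation of members from their own mean, on the log2(CPM + 1) scale, was 0.083, 0.026, -0.028 and -0.065 in replicates 1 to 4. Over all genes it was at most 0.003 either way, but the scaling itself centres the bulk of genes. Neither background was matched to the members for count. The summed level of the members followed the same course, at 7051, 6670.0, 6609 and 6249 TPM. Replicate 1 was also the library with the fewest counted fragments. The part of depth in this pattern was not tested.

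The commonest order of libraries from high to low was 1, 2, 3 and 4, which 21 members (13.3%) followed beside 5.85% of all genes tested. The order 1, 3, 2 and 4 was followed by 20 members (12.7%) beside 8.70% of all genes tested, and 1, 2, 4 and 3 by 15 (9.49%) beside 3.73%. The second of these orders, itself common among all genes, included 1700096K18Rik, with deviations of 0.57, -0.17, 0.30 and -0.70, and D130017N08Rik, with 0.49, -0.14, 0.16 and -0.51. Gm9889 deviated by 0.50, -0.19, 0.26 and -0.57, and its coding neighbour S1pr1, the receptor that lets lymphocytes leave lymph nodes, starts 78 bases away on the opposite strand. S1pr1 was at 837, 613, 758 and 608 TPM, which is the same order of libraries. This neighbour was singled out after its values had been seen. In all, 28 members start within 2000 bases of a coding gene's start on the opposite strand. Of these, 10 had the same highest library as the coding gene and 11 the same lowest. Among the 26 members that start within 5000 bases after a coding gene's end on the same strand, the numbers were 7 and 8. The share over unrelated pairs of genes was not computed.

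A pair of gene lists that earlier results had shown to differ between these libraries are given beside these members. The 9 heat shock genes had median deviations of -0.61, 0.04, -0.21 and 0.76, and the 10 interferon-induced genes 0.18, 0.41, -0.65 and -0.05. Of the heat shock genes, 8 of 9 were highest in replicate 4 and all 9 lowest in replicate 1, the reverse of 1700096K18Rik, D130017N08Rik and Gm9889. All 10 interferon genes were lowest in replicate 3. Gm42047 deviated by 0.63, 0.58, -1.04 and -0.17, Malat1 by 0.25, 0.16, -0.34 and -0.06, and Gm26551 by 0.20, 0.38, -0.36 and -0.22. Members were set beside either list because of their highest or lowest library, so the match in library was chosen. In all, 49 of 158 tested members (31.0%) were lowest in replicate 3, beside 23.9% of all genes tested. Another 27 (17.1%) were highest there, beside 24.8%, among them Gm26917 (0.29) and AW112010 (0.18). Neat1, at 0.43, 0.07, -0.25 and -0.25, was equally low in replicates 3 and 4. Whether these shifts are related was not tested.

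**Figure D3:**
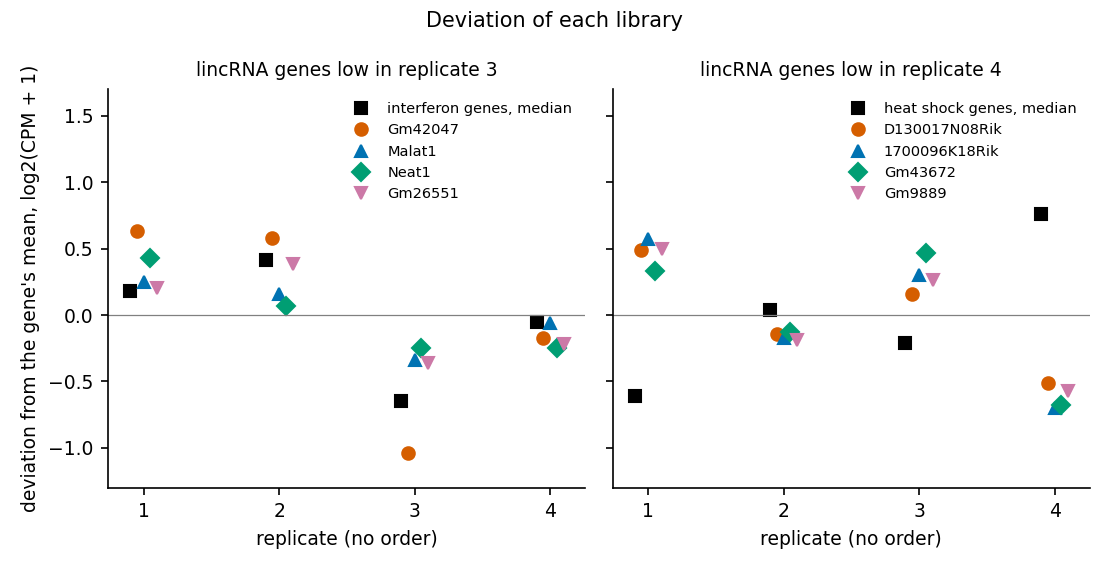
Deviation of each library from the gene's mean on the log2(CPM + 1) scale, left for members low in replicate 3 beside the median of the interferon list, right for members low in replicate 4 beside the median of the heat shock list. Gm42047 reached -1.04 in replicate 3, and 1700096K18Rik -0.70 in replicate 4.

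Position and structure set the members apart from most lincRNA genes, by counts alone. A member lay a median of 3807 bases from the nearest protein-coding gene, against 33411 bases for the 3650 candidates below the minimum and 6752 bases for the 736 of those with at least 1 count. More than 50000 bases separated 14.9% of members, 41.9% of the 3650 and 20.4% of the 736 from any coding gene. The median exon length, which enters TPM and so the choice of members, was 1572 bases for members, 992 for the 3650 and 1398 for the 736. Of the members, 36 (22.4%) had a single exon block, beside 6.68% and 11.1%.

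A divergent start, within 2000 bases of a coding gene's start on the opposite strand, was found for 28 members (17.4%), for 8.63% of the 3650 and for 20.0% of the 736. Compared with lincRNA genes that had a count, the members were thus not richer in divergent starts. Of the 28 coding partners, 27 reached 3 TPM, with a median of 70.5 TPM, and the member exceeded its partner in 3 pairs. The highest member was A430046D13Rik at 34.2 TPM beside Myl6b at 0.902 TPM. Others were AI480526 at 27.7 TPM beside the histone methyltransferase gene Setd1b at 69.6 TPM, Gm14230 at 21.8 TPM beside Tgif2 at 21.1 TPM and Gm12474 at 17.9 TPM beside Tent5c at 141 TPM. 5031425E22Rik at 17.3 TPM paired with Kmt2e at 136 TPM, and Gm43703 at 16.7 TPM with Lfng, a glycosyltransferase that modifies Notch, at 388 TPM.

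A start within 5000 bases after a coding gene's end on the same strand was found for 26 members (16.1%), for 3.07% of the 3650 and for 7.34% of the 736. Transcripts of this kind can be separate genes or continuations of the coding transcript, and counts per gene do not tell these apart. The leading examples were AI504432 after Kcna3, Neat1 4224 bases after Frmd8 at 254 TPM and Gm15675 1836 bases after Cd55, a complement inhibitor, at 55.7 TPM. 4833403J16Rik at 27.2 TPM began 1128 bases after Gimap5, a gene for lymphocyte survival, at 76.5 TPM. Gm12847 at 23.4 TPM began 29 bases after Atpaf1 at 15.5 TPM, and A530017D24Rik at 19.4 TPM began 3249 bases after Akap10 at 42.7 TPM. The member exceeded its upstream gene in 8 of the 26 pairs.

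**Figure D4:**
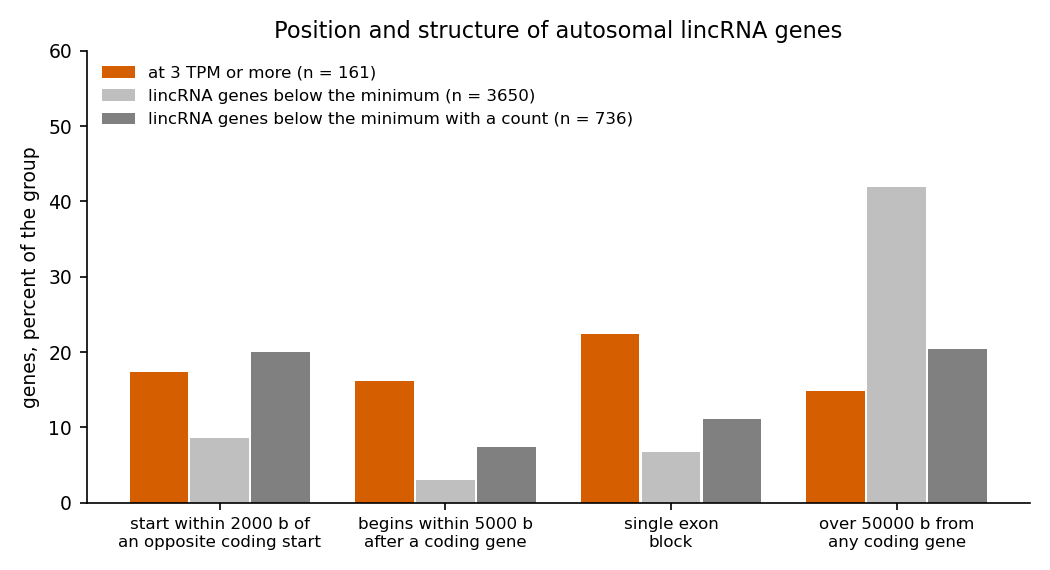
Percent of genes with each position or structure for the 161 lincRNA genes at 3 TPM or more (orange), the 3650 below that minimum (light grey) and the 736 of these with a count (dark grey). The members stood above both other groups for starts after a coding gene (16.1%) and for a single exon block (22.4%).

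Promoter windows from RefSeq (GRCm38.p6, 250 bases before to 50 after the start) were found for 76 members, 57 of them within 500 bases of the counted gene's start. These 57 had a median GC content of 54.7% and 11.0 CpG dinucleotides per 300 bases. For 1159 candidates below the minimum the medians were 48.3% and 4.00, and for 13993 protein-coding genes 57.7% and 16. The members' windows thus lay between those of lincRNA genes below the minimum and of coding genes.

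Motifs were searched on both strands. The ETS word CCGGAAG was in 12 of the 57 windows (21.1%), beside 5.00% of the windows below the minimum, 13.4% of coding windows and 8.86% of all 32851 windows. The SP/KLF word GGGCGGG was in 17 (29.8%), beside 25.6% of all windows. The RUNX word TGTGGTT was in 4 (7.02%, all 5.27%), the NFY word CCAAT in 18 (31.6%, all 37.4%), the TCF/LEF word CTTTGAA in 3 (5.26%, all 5.14%) and the TATA word TATAAA in 5 (8.77%, all 13.6%). The ETS word thus showed the widest ratio to all windows, a mixed background. Coding windows held the ETS word more often than all windows did, and the RUNX word less often, at 4.54%. A match describes the letters only and is not a bound site. The windows of 3 members are printed to show the cases: Gm19585 with a RUNX word, AU020206 with SP/KLF and NFY words, and BC002059 (29.5 TPM) with 2 ETS words and 2 NFY words. Capitals mark matches to any of the 6 words on either strand. The windows are chr17:52149039-52149338 (plus), chr7:75782071-75782370 (minus) and chr17:16951286-16951585 (plus).
Gm19585: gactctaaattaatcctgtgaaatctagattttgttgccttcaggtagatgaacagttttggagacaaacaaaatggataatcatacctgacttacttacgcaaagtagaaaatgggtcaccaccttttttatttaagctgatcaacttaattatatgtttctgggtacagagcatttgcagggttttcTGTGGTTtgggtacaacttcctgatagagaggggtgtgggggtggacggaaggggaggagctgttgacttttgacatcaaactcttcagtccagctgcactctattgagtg
AU020206: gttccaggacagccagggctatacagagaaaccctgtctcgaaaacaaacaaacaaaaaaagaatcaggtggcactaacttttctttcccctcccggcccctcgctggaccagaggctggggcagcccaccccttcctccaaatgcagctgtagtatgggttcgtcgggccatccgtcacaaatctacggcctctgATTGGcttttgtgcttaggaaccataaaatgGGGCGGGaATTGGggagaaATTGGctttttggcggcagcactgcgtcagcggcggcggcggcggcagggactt
BC002059: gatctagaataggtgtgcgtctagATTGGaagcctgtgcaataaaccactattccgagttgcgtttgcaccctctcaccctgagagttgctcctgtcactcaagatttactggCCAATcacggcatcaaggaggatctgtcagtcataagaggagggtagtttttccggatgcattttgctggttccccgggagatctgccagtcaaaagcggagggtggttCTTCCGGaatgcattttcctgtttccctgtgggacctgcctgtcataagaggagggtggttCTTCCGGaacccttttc

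**Figure D5:**
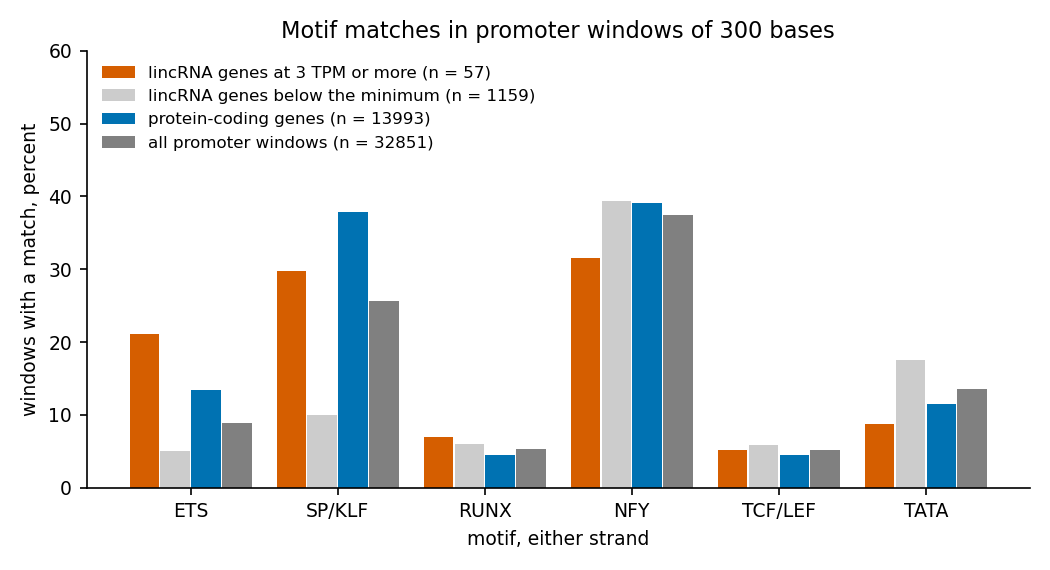
Percent of 300-base RefSeq promoter windows with at least 1 match to each of 6 words on either strand, for the 57 lincRNA genes at 3 TPM or more (orange), lincRNA genes below the minimum, protein-coding genes and all windows. The ETS word was in 21.1% of the members' windows and in 8.86% of all windows.

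The annotations do not agree on which members are noncoding. RefSeq matched 99 of the 161 and classed 86 as long noncoding RNA, 10 as protein-coding, 2 as pseudogenes and 1 as a transcribed pseudogene. The 10 include Tmem250-ps at 50.7 ± 6.80, 1810058I24Rik at 42.6 ± 4.59 and A530021J07Rik at 33.8 ± 5.57 TPM (SD, n = 4). In the longest M21 transcript of each gene, the longest reading frame from a start codon to a stop codon had a median of 136 codons for these 10 and 78.0 codons for the 86. A frame of at least 100 codons was present in 6 of the 10 and in 15 of the 86. Reading-frame length alone thus did not separate the classes. The 62 members without a RefSeq match were not part of this comparison. Gm42047, the member called for spread, is among them and had a longest frame of 393 codons.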

How the data were processed

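RNA-seq was made from 4 libraries of 1 group. The deposited tables hold unnormalized fragment counts, made by the authors with featureCounts 1.4.6-p4 per the file headers: paired fragments, both ends mapped, reverse-strand setting, exons of GENCODE M13 (mm10), and no option for multi-mapping fragments or for fragments on several genes, which lowers genes with near-identical copies or shared exons. The version of the aligner was not found in the labels or headers. Total counts were 29041979, 35018552, 48808978 and 45490373 in replicates 1 to 4, and limits at 0 counts cover counting error only.

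Symbols and biotypes came from GENCODE M21 by gene ID (50376 of 50600 matched). TPM was computed from counts and union exon length over all rows. Spread used edgeR 4.0.16 in R 4.3.3 (intercept only, TMM factors, filterByExpr, robust quasi-dispersion against the prior trend, one-sided F test, Benjamini-Hochberg over all 12464 genes), with DESeq2 1.42.0 as an alternative, and was tested on simulated data. Other steps used Python 3.11.15, numpy 2.4.6 and pandas 2.3.3. MicroRNA and promoter sequences are RefSeq's and transcripts are GENCODE M21's.

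The members and lists were chosen with earlier results of these data known. Named genes were the 15 members of highest mean TPM, the 10 of largest and 5 of smallest coefficient of variation at a mean count of 50 or more, every member called, genes of the published list at 1 TPM in every library, the 3 genes on each side of the minimum, the nearest coding genes of the first 15, and the first 6 divergent and 6 downstream pairs. A nearest coding gene and a marker gene covered by these lists are not reported here. Named in addition were the microRNA hosts, the neighbours of Gm42047 and Gm9889, the library-order examples and the RefSeq coding examples.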

Additional observations from a re-analysis of the deposited data

Results flagged for a closer look

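Among 74 named values, 3 had 1 library far from the other three, by a gap to the nearest library divided by the whole range above Dixon's 95% critical value. Chance flags about 1 in 20 groups of this size. Gm12847, the member that begins just after Atpaf1, was at 26.7, 25.1, 25.2 and 16.5 TPM, low in replicate 4 with a ratio of 0.841. Gm16001, a lincRNA gene just outside the minimum, was at 3.16, 3.22, 3.37 and 2.04 TPM, also low in replicate 4 with a ratio of 0.841. Dleu2, a listed long noncoding RNA gene of another biotype, was at 3.21, 3.26, 2.53 and 3.31 TPM, low in replicate 3 with a ratio of 0.870. Over all 161 members, 7 exceeded the same ratio.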

How the results depend on the processing

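The set held 254 genes at a mean of 1 TPM, 76 at 10 TPM and 97 at a mean CPM of 3 without length correction. The number of members called for spread was 6 with no filter, 0 at a mean CPM of 1 or more, 0 without the robust prior, 2 by DESeq2 outliers, 0 when only nuclear protein-coding and member genes were fitted, and 0 to 3 when 1 replicate was left out. All genes called went from 24 to 349, 14, 5, 108 and 6 under these settings, and to between 7 and 86 without 1 replicate. The adjusted p of Gm42047 in edgeR was 0.0656 at a mean CPM of 1, 0.105 without the robust prior and 0.0723 in the smaller fit. The cause was not tested. Members starting after a coding gene numbered 13 within 2000 bases. The summed level was 7568 TPM over nuclear protein-coding rows, 4187 TPM without Gm42418 and, chosen after seeing the data, 3691 TPM without Gm42418 and Gm26917. The median coefficient of variation was 13.7% to 15.2% without 1 replicate. Of 94 alternative values, 59 stayed within their limits and 26 moved. A further 5 adjusted p-values of edgeR rose to 0.05 or more, and 4 fell below it. Only the median library deviations could reverse in sign, and 0 did. The 4 libraries limit precision, and counts below 50 give wide spread.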
